A study of Homo sapiens with 17 samples.

Results

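The genes examined here were 8 genes of polyamine metabolism, listed by symbol: ODC1, OAZ1, OAZ2, AZIN1, AMD1, SRM, SMS and SAT1. Of these 8 genes, 7 had a row among the 9699 genes of the expression table, and OAZ2 had none. They were followed in BJ fibroblasts, human foreskin fibroblasts immortalized with hTERT, the catalytic subunit of telomerase, by RNA-Seq of poly(A) RNA and by Ribo-Seq, which sequences the mRNA fragments that ribosomes protect. Every culture carried hTERT. Proliferating cells grew in full serum, quiescent cells were deprived of serum, and pre-senescent and senescent cells carried a RASG12V that tamoxifen switches on and had been in 4-OHT-Tamoxifen for 5 days and for 14 days. The transformed cells carried hTERT, stable knockdowns that include p16INK4A, SV40 small T and a retroviral RASG12V. The labels do not say which RAS gene was used, whether the lines were clones, or whether the proliferating controls carried the inducible construct.

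Polyamines (putrescine, spermidine and spermine) are small cations that bind RNA and are needed for growth and for translation. ODC1 makes putrescine from ornithine, AMD1 makes the aminopropyl donor from S-adenosylmethionine, and the synthases SRM and SMS add aminopropyl groups to give spermidine and then spermine. SAT1 acetylates spermidine and spermine so that they can be oxidized or exported. OAZ1 and OAZ2 encode antizymes, which bind ODC1, send it to the proteasome and block polyamine uptake, and AZIN1 is an inactive relative of ODC1 that captures antizyme. Several of these mRNAs sense polyamines during translation: a full antizyme needs a ribosomal frameshift, and short upstream reading frames hold back AMD1, ODC1 and AZIN1.

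The sequence that bears on this control, and the motif by which the MYC family binds ODC1 and SRM, could be read from the RefSeq start-site windows (GRCh38.p14, 250 bases before to 50 after each annotated start). The AMD1 line shows the upstream reading frame in capitals, from its ATG to its stop, 21 bases or 6 codons before the stop. The printed stretch, with 4 flanking bases on each side, lies at chr6:110874792-110874820 on the plus strand, in the transcribed 5′ leader, and was present in 2 of the 3 AMD1 windows. An ATG followed by an in-frame stop within the first 50 transcribed bases occurred in 10.2% of 35116 windows of all genes. The other lines show CACGTG, the E-box, in capitals. It occurred in 7.26% of the windows, and since it is its own reverse complement both strands give the same matches. Each is printed with 10 flanking bases on each side, which the coordinates include. ODC1 held 2 copies in 1 of its 2 windows, both on the minus strand, at chr2:10448026-10448051 just upstream of the start and at chr2:10447992-10448017 in the first transcribed bases. SRM held 1 copy upstream of its start at chr1:11060202-11060227, also on the minus strand. No CACGTG was found in the windows of OAZ1, OAZ2, AMD1, SMS or SAT1, and the window of AZIN1 was not used here.
AMD1 upstream frame: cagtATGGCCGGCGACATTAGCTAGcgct
ODC1 upstream E-box: gggccccgggCACGTGtgcggcgcgc
ODC1 transcribed E-box: cctgcggagaCACGTGgtcgccgagc
SRM upstream E-box: ggccgggcccCACGTGgcccctggag

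The levels are FPKM, fragments scaled to length and to the number of reads, over the whole transcript for RNA and over the coding sequence for Ribo-Seq. The translation efficiency (TE) is log2 of the Ribo-Seq FPKM over the RNA-Seq FPKM. The table held 12 columns, 6 per assay: a proliferating column of sequencing run 1 with its quiescent and pre-senescent columns, and a proliferating column of run 2 with its senescent and transformed columns. Of these, 5 columns combined 2 libraries and 7 held 1 library, so no spread within a state could be had and no test was possible. A difference of at least 1.5-fold, taken within a run, was called. Each difference was read against the gap between the proliferating columns of the 2 runs, in which culture and run cannot be told apart. The authors list the RNA-Seq libraries of run 1 as paired-end and those of run 2 as not, so the RNA and TE gaps span that difference too. Over the 7 genes, the SD between the proliferating columns was 0.39 (log2) for RNA, 0.51 for Ribo-Seq and 0.42 for TE. The table carries no counts, so no counting error could be given for a value, and a lower level in bulk RNA cannot part fewer expressing cells from less RNA per cell.

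Some titles and labels disagreed, and genes that bear on the labels were looked at. The Ribo-Seq libraries titled as senescent and as run 2 proliferating bear each other's condition label, and the titles, which the columns follow, were used. Across 9699 genes, the senescent Ribo-Seq column correlated at r = 0.90 with senescent RNA and at 0.78 with run 2 proliferating RNA, and the run 2 proliferating Ribo-Seq column at 0.80 and 0.88. MKI67, a proliferation marker, was listed at the table's floor of 1.00 FPKM in both senescent columns. In the cells labelled transformed CDKN2A, the gene of p16INK4A, was at 12.64 RNA FPKM against 6.75 in the run 2 and 17.19 in the run 1 proliferating column, and at 5.51 Ribo-Seq FPKM against 8.92 and 13, so that the RNA lay between the controls and the footprints below both. HRAS RNA was 2415.28 and 1283.52 FPKM in the run 1 and run 2 proliferating columns and 311.51 in the cells labelled transformed. ESR1, whose hormone-binding part serves in tamoxifen-switched constructs, was at 331.60 and 242.33 Ribo-Seq FPKM in these proliferating columns and at 8.84 in the cells labelled transformed. The CDKN2A row stands for 1 transcript of a gene that also encodes ARF. Of the fibroblast markers, 10 of 10 had a row (summed RNA 5014 to 7501 FPKM, most of it VIM). Of these 10, 9 were called lower in RNA in senescence (median log2 −2.02), where 22.7% of all genes were. In pre-senescence 7 were called lower (median −1.06, all genes 6.82%). SAT1 was highest in these states, and the part of the fibroblast markers in that result was not tested. Of the epithelial markers, 3 of 5 had a row (105 to 313 FPKM), of the endothelial 0 of 3, and of the blood markers 1 of 3, CD14, at 1.00 to 1.67 FPKM. The run 2 proliferating column stood apart in KRT19, at 39.76 RNA FPKM against 1.00 to 4.43 in the others, and in COL1A1, at 1328.21 against 51.57 to 762.03. Whether this difference between the cultures touched the polyamine genes was not tested.

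At the RNA level OAZ1 was the most abundant of the genes and SAT1 the least in proliferating cells. In the run 1 proliferating column the order was OAZ1 at 521.82 RNA FPKM, SRM at 234.12, SMS at 124.07, ODC1 at 92.37, AMD1 at 59.74, AZIN1 at 48.85 and SAT1 at 10.58. In the run 2 column OAZ1, SRM and the last pair kept their places, while AMD1 (77.28 RNA FPKM) stood above ODC1 (65.40) and SMS (61.12). The places of SMS and AMD1 therefore did not hold between cultures of the same state, while ODC1 stood between them in both. Across all 6 columns the highest RNA level was 11.2 times the lowest for SAT1 and 1.54 to 2.37 times for the other 6 genes.

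All of these mRNAs carried few footprints for their RNA level. The TE of each of the 7 genes lay below the median TE of all genes in every one of the 6 states. The median of all genes was 0.41 in the run 1 and 0.43 in the run 2 proliferating column, and the median of the 7 genes was −0.55 and −0.58. Below the lower quartile of all genes were 6 of the 7 in the run 1 proliferating column, 5 in the run 2 column, 6 in quiescence, 6 in pre-senescence, 7 in senescence and 7 in the cells labelled transformed. The exception in the run 1 columns was SAT1. In the run 2 proliferating column the exceptions were AMD1, at −0.15, and SMS, at −0.21.

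By TE, OAZ1 was the lowest of the 7 genes in the run 1 proliferating, quiescent, pre-senescent and senescent states, and AZIN1 in the run 2 proliferating column and the cells labelled transformed. AZIN1 ranged from the 2.61 to the 14.0 percentile of all genes over the 6 states. OAZ1 ranged from the 3.08 to the 21.2 percentile, SRM from 5.77 to 17.4, ODC1 from 6.24 to 19.3, SMS from 7.56 to 25.7, AMD1 from 8.95 to 27.8 and SAT1 from 5.94 to 37.4. The mRNAs with a known upstream frame or frameshift thus shared the low range with SRM and SMS. The deposited value is 1 number for the coding sequence of 1 transcript: footprints on upstream frames are not in it, and those before and after the antizyme frameshift are not told apart.

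Serum depletion was compared with proliferation within run 1. All 4 biosynthetic enzymes had lower footprint levels in quiescence, with a median log2 difference of −1.09. Their RNA was lower too, by a median of −0.64, and 2 of the 4, SRM and SMS, were called. Of the 7 genes, 5 were called lower in Ribo-Seq and 0 higher, where 22.6% of all genes were called lower and 19.1% higher. In RNA, 2 were called lower (background 8.94%) and 0 higher (10.9%), and in TE 1 was called lower (13.8%) and 0 higher (10.6%).

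ODC1 (ENST00000234111), the first and highly regulated enzyme of the route, had 62.99 Ribo-Seq FPKM in the run 1 proliferating column, 43.90 in the run 2 proliferating column and 30.13 in quiescence. The quiescent column was below both, 2.09-fold under its own control, a log2 difference of −1.06 against a gap of −0.52 between the proliferating columns. ODC1 RNA was 63.01 FPKM in quiescence against 92.37 in run 1 and 65.40 in run 2, a log2 difference of −0.55 that missed 1.5-fold and was about the size of the gap of −0.50.

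AMD1 (ENST00000368885), the decarboxylase with the upstream frame printed above, had 45.21 Ribo-Seq FPKM in the run 1 and 69.80 in the run 2 proliferating column and 21.00 in quiescence. Its log2 difference from run 1 was −1.11 in Ribo-Seq and −0.44 in RNA, which went from 59.74 to 43.94 FPKM. Its TE went from −0.40 to −1.07, a difference of −0.66 against a gap of 0.26, and AMD1 was the gene called lower in TE.

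SMS (ENST00000404933), the spermine synthase, had the widest gap to its control, 40.63 Ribo-Seq FPKM in quiescence against 97.06, a log2 difference of −1.26. The run 2 proliferating column, at 53.01, was also above quiescence, but the gap between the proliferating columns was −0.87. In RNA the quiescent value of 71.12 FPKM fell between the proliferating columns, 124.07 in run 1 and 61.12 in run 2, so that its called log2 difference of −0.80 went to −0.29, no longer called, against the mean of both controls.

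SRM (ENST00000376957), the spermidine synthase and an E-box gene above, had 78.67 Ribo-Seq FPKM in quiescence against 119.74 in run 1 and 87.58 in run 2. Its log2 difference of −0.61 in Ribo-Seq stood just past 1.5-fold and was −0.73 in RNA, with 140.82 FPKM against 234.12 and, in run 2, 147.83. Its TE differed by 0.13 only. Against the mean of both controls neither was called (−0.38 and −0.40).

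Of the other genes, AZIN1 (ENST00000337198) was called lower in Ribo-Seq in quiescence, at 16.70 FPKM against 27.98, but the run 2 proliferating column was lower still, at 12.86. Its log2 difference of −0.74 against run 1 became −0.18 against the mean of both controls. OAZ1 (ENST00000322297) RNA was 526.96 FPKM in quiescence against 521.82, and SAT1 (ENST00000379270) had 11.19 Ribo-Seq FPKM in both columns.

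In quiescence, 4 of 4 enzymes lay below both proliferating columns in Ribo-Seq, as did OAZ1, whereas 36.8% of all genes did. In RNA 3 of the 4 enzymes did (all genes 28.1%), by as little as 63.01 against 65.40 FPKM for ODC1. In TE ODC1, AMD1 and SMS did, along with OAZ1 (all genes 40.1%). The same 4 genes lay below both in TE in pre-senescence (all genes 46.8%). So did 5 of the 7 in senescence (39.8%) and 4 in the cells labelled transformed (38.8%), so this was not particular to quiescence. Ribosomal protein genes made up 8.22% of the summed Ribo-Seq FPKM in quiescence and 14.1% in its control. With the columns scaled without these 81 genes, ODC1, AMD1, SMS and AZIN1 stayed called lower in Ribo-Seq. SRM, at −0.50, and the TE of AMD1, at −0.57, did not.

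The pre-senescent state, 5 days of RASG12V, was compared with the same run 1 control, which quiescence therefore shares. SAT1 was higher in both assays and ODC1 in RNA only. SAT1 RNA was 33.77 FPKM against 10.58 in run 1 and 15.15 in run 2, a 3.19-fold difference from its control (log2 1.67) that placed it at the 99.5 percentile of all genes. Its Ribo-Seq level was 27.57 FPKM against 11.19 and 9.59, 2.46-fold (log2 1.30). Both lay above either proliferating column, and both were beyond the gaps of 0.52 and −0.22.

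ODC1 RNA in pre-senescence was 149.45 FPKM, the highest of its 6 columns, against 92.37 in the control, a log2 difference of 0.69. Its footprints were not higher, at 58.69 FPKM against 62.99 (log2 −0.10). Its TE was −1.35, the lowest of the 6 columns, and lay 0.80 below the control, whereas the TE of ODC1 in the proliferating columns was −0.55 and −0.58.

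SMS had a TE of −1.23 in pre-senescence against −0.35, a difference of −0.88 with a gap of 0.15 between the proliferating columns. Its RNA, at 137.22 FPKM, stood above both controls. Its Ribo-Seq level, at 58.38 FPKM, was called lower than its own control of 97.06 but stood above the run 2 value of 53.01. The other synthase, SRM, went the other way in TE, at −0.66 against −0.97 in run 1 and −0.76 in run 2, a difference of 0.30 that was not called.

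In pre-senescence 2 of the 7 genes were called higher in RNA (all genes 5.8%) and 0 lower (6.82%). In Ribo-Seq 1 was called higher (16.3%) and 1 lower (23.3%), and in TE 0 higher (13.6%) and 2 lower (22.5%). Between these cultures of run 1, all 4 enzymes had less RNA in quiescence than in pre-senescence, with log2 differences of −1.25 for ODC1, −0.95 for SMS, −0.69 for AMD1 and −0.68 for SRM, where 11% of all genes were called lower. In Ribo-Seq 3 of the 4 were called lower in quiescence (all genes 16.4%), ODC1 by −0.96, AMD1 by −0.93 and SRM by −0.86, and SMS differed by −0.52. SAT1 was lower in quiescence by −1.36 in RNA and −1.30 in Ribo-Seq. TE differed by at most 0.43 in size between these states, for SMS.

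Senescence, 14 days of RASG12V, was compared with the run 2 proliferating column. SAT1 RNA was 118.24 FPKM against 15.15, and 10.58 in run 1, which is 7.80-fold (log2 2.96) and placed SAT1 at the 99.6 percentile of all genes. In Ribo-Seq SAT1 was at 44.82 FPKM against 9.59 and, in run 1, 11.19, 4.67-fold (log2 2.22, 98.4 percentile). SAT1 footprints were therefore higher by less than its RNA: its TE was −1.40 in senescence against −0.66, a difference of −0.74 equal in size to the gap between the proliferating columns. With the Ribo-Seq columns set by their condition labels in place of their titles, the Ribo-Seq difference of SAT1 turned to −2.22. Exchanging these columns turns the sign of every senescent Ribo-Seq difference by construction.

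The enzymes of synthesis did not stand low in senescence. SRM RNA was 267.10 FPKM against 147.83 (log2 0.85) and was called higher, though the run 1 proliferating column was at 234.12. ODC1 was at 93.07 RNA FPKM against 65.40, AMD1 at 90.04 against 77.28 and SMS at 82.31 against 61.12, none of them called. In Ribo-Seq the 4 enzymes differed by 0.03 to 0.50 (log2), the widest for ODC1, at 62.03 FPKM against 43.90. SMS, at 58.35 FPKM, and SRM, at 99.66, stood above run 2 (53.01 and 87.58) but below run 1 (97.06 and 119.74). The RNA of SMS was also below the 124.07 FPKM of run 1. SRM had the lowest TE of its 6 columns, −1.42 against −0.76.

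OAZ1, the antizyme, was called lower in Ribo-Seq and TE in senescence. The Ribo-Seq call and the size of the TE difference rest on the run 2 proliferating column. OAZ1 had 219.37 Ribo-Seq FPKM in senescence against 390.89 in that control, a 1.78-fold lower level, but the other 5 columns held 158.81 to 223.50. Its RNA was 631.43 FPKM against 503.82. Against the mean of both controls, the log2 difference of −0.83 in Ribo-Seq became −0.43, not called. That of −1.16 in TE became −0.73, still called. OAZ1 TE was −1.53 in senescence against −0.37 in the run 2 and −1.22 in the run 1 proliferating column. AZIN1, its partner, was at 31.73 RNA FPKM in senescence, the lowest of its 6 columns, against 46.17 (log2 −0.54), with a narrow gap of −0.08 between the proliferating columns. AZIN1 TE was called higher, at −1.04 against −1.84, but was −0.80 in the run 1 control, and against the mean of both controls the difference of 0.80 became 0.28.

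In senescence 2 of the 7 genes were called higher in RNA (all genes 18.7%) and 0 lower (22.7%). In Ribo-Seq 1 was higher (21%) and 1 lower (29.5%), and in TE 1 was higher (13.2%) and 3 lower (17.5%), namely OAZ1, SRM and SAT1.

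The cells labelled transformed were compared with the same run 2 control. OAZ1 was lower in both assays: its RNA was 323.20 FPKM, the lowest of the 6 columns, whose other values were 503.82 to 631.43, and its log2 difference was −0.64 with a gap of −0.05. OAZ1 Ribo-Seq was 176.80 FPKM against 390.89 in run 2 and 223.50 in run 1, 2.21-fold lower (log2 −1.14). SAT1 RNA was 28.02 FPKM against 15.15, 1.85-fold higher, and its Ribo-Seq level of 11.91 FPKM was close to the 9.59 and 11.19 of the proliferating columns. SMS RNA was called higher, at 103.90 FPKM against 61.12, but below the 124.07 of run 1.

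ODC1 in the cells labelled transformed was at 81.31 RNA FPKM and 47.11 Ribo-Seq FPKM, within the range of the proliferating columns in both assays. AMD1 was too, at 70.83 and 54.57 FPKM. SRM had its lowest Ribo-Seq level, 62.70 FPKM against 87.58, a log2 difference of −0.48 that was not called, and AZIN1 differed by 0.06 in RNA and 0.09 in Ribo-Seq. The calls were 2 higher (all genes 13.2%) and 1 lower (11.6%) in RNA, 0 higher (13.6%) and 1 lower (15.8%) in Ribo-Seq, and 0 higher (4.35%) and 0 lower (10%) in TE.

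Senescent cells and the cells labelled transformed share RASG12V and a sequencing run. SAT1 was higher in senescence by 2.08 (log2) in RNA and 1.91 in Ribo-Seq. OAZ1 was higher in senescence by 0.97 in RNA but by 0.31 in Ribo-Seq, SRM by 0.85 and 0.67, and AZIN1 differed by −0.60 in RNA and 0.17 in Ribo-Seq. ODC1, AMD1 and SMS differed by at most 0.40 in size in either assay. In all, 3 of the 7 genes were called higher in senescence in RNA (all genes 18.5%) and 1 lower (27.1%), and 2 higher in Ribo-Seq (22.9%) and 0 lower (30.1%). In TE AZIN1, by 0.78, was the 1 called higher (13%) and OAZ1, by −0.65, the 1 called lower (10.7%).

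TE was below the control in 6 of the 7 genes in each of the 4 comparisons, most by less than 1.5-fold. The exception was SRM in quiescence and pre-senescence and AZIN1 in senescence and in the cells labelled transformed. The median TE difference of the 7 genes was −0.45, −0.42, −0.29 and −0.34 in quiescence, pre-senescence, senescence and the cells labelled transformed, and that of all genes −0.06, −0.15, −0.04 and −0.07. Most of all genes thus lay below their control too. The difference, of either sign, was wider than the gap between the proliferating columns in 3, 4, 3 and 3 of the 7 genes. The first pair of comparisons shares a control, as does the second.

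The ratio of OAZ1 to ODC1, of RNA and footprints and not of protein, lay outside both proliferating columns in some states only. The ratio of OAZ1 to ODC1 RNA was 5.65 in the run 1 and 7.70 in the run 2 proliferating column. It was 8.36 in quiescence and 6.78 in senescence, and 3.58 in pre-senescence and 3.97 in the cells labelled transformed, the last pair below both proliferating columns. In Ribo-Seq the proliferating columns were themselves apart, at 3.55 and 8.90, and pre-senescence, at 2.71, lay below both, with senescence, at 3.54, level with run 1. The ratio of SRM to SAT1, synthesis to acetylation, was lowest in senescence in both assays, at 2.26 in RNA and 2.22 in Ribo-Seq, against 22.1 and 9.76 in RNA and 10.7 and 9.13 in Ribo-Seq in the proliferating columns of run 1 and run 2.

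The other listed polyamine enzymes and relatives were lower in footprints in senescence than in the run 2 proliferating column. Of 7 listed genes 3 had a row (SMOX, PAOX and SAT2), and all 3 were called lower in senescence in Ribo-Seq (all genes 29.5%) and in TE (17.5%), and 0 in RNA (22.7%). SMOX, spermine oxidase, was near the floor in senescence, at 1.82 Ribo-Seq FPKM against 5.24 (log2 −1.53). SAT2, a relative of SAT1, was at 9.51 against 23.87 (−1.33), but the run 1 proliferating column held 12.64. PAOX, which oxidizes acetylated polyamines, was near the floor in every column. In the cells labelled transformed SMOX RNA was 25.23 FPKM against 8.72 (log2 1.53), while the run 1 proliferating column held 16.70. In pre-senescence SAT2 was higher in Ribo-Seq by 1.11, at 27.23 FPKM against 12.64, but the run 2 proliferating column held 23.87. In quiescence 1 of the 3, PAOX, was called higher in RNA (all genes 10.9%) and Ribo-Seq (19.1%), at 3.60 and 4.96 FPKM against 2.33 and 2.49.

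Of 6 transport genes 4 had a row. ATP13A3, a polyamine transporter of the P-type ATPase family, was at 57.13 RNA FPKM in senescence against 27.57 (log2 1.05) and at 80.49 Ribo-Seq FPKM against 19.69 (log2 2.03). Its other 4 Ribo-Seq columns held 15.54 to 38.12. ATP13A2, the lysosomal polyamine exporter, was at 6.01 Ribo-Seq FPKM against 2.84 (log2 1.08), but at 6.30 in the run 1 proliferating column. In senescence 2 of 4 were called higher in RNA (all genes 18.7%) and 2 in Ribo-Seq (21%). SLC7A1, which imports arginine and ornithine, had less RNA but no fewer footprints: its TE was higher by 0.75 in quiescence, 1.32 in pre-senescence and 0.93 in senescence, and by 0.31 in the cells labelled transformed. There SLC3A2, a heavy chain of amino acid exchangers, was higher by 0.88 in RNA, from 47.99 to 88.09 FPKM, below its 97.04 in the run 1 proliferating column.

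Precursor supply was followed in 2 lists. Of 5 genes of ornithine and arginine supply 4 had a row, with 2 called higher in RNA in quiescence (all genes 10.9%) and 0 lower (8.94%). ASS1, which makes argininosuccinate, was at 213.61 RNA FPKM in quiescence against 64.76 (log2 1.72) and at 228.77 in senescence against 90.94 (1.33). ARG2, an arginase that gives ornithine, was at 8.33 in quiescence against 4.24 (0.97). Of 11 genes of S-adenosylmethionine supply and methylthioadenosine salvage 9 had a row, and in quiescence 0 were called higher (all genes 19.1%) and 2 lower (22.6%) in Ribo-Seq, the latter near the share of all genes. In senescence 3 were called higher (21%) and 1 lower (29.5%). AHCY, which removes S-adenosylhomocysteine, was higher there by 1.39 in RNA and 1.35 in Ribo-Seq, although its 181.03 RNA FPKM compares with 113.96 in the run 1 control. The AHCY footprints, at 216.44 FPKM against 84.93 in run 2, were close to the 208.66 of the run 1 control. MRI1 was higher by 1.02 in Ribo-Seq, at 28.74 FPKM against 14.16 but 29.38 in the run 1 control, and MTR, methionine synthase, was lower in RNA (log2 −1.21). The salvage enzyme APIP was lower in Ribo-Seq in quiescence (log2 −1.08) and pre-senescence (−1.06), and ADI1 in pre-senescence (−1.04).

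Spermidine is also the donor for hypusine, the modified lysine of EIF5A that DHPS and DOHH make. All 4 hypusine genes had a row. In quiescence 2 were called lower (all genes 22.6%) and 0 higher (19.1%) in Ribo-Seq, EIF5A by −1.04 and EIF5A2 by −0.91, and in pre-senescence EIF5A2 was lower by −1.55. In senescence EIF5A was at 217.00 Ribo-Seq FPKM against 519.91 (log2 −1.26) with RNA at 58.94 against 51.57, a TE difference of −1.45, and DHPS was lower by −0.95 in Ribo-Seq. In the run 1 proliferating column EIF5A was at 222.65 Ribo-Seq and 14.89 RNA FPKM. EIF5A has a near-identical copy in the genome, and since only uniquely mapped reads were counted its level is uncertain.

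**Figure D1:**
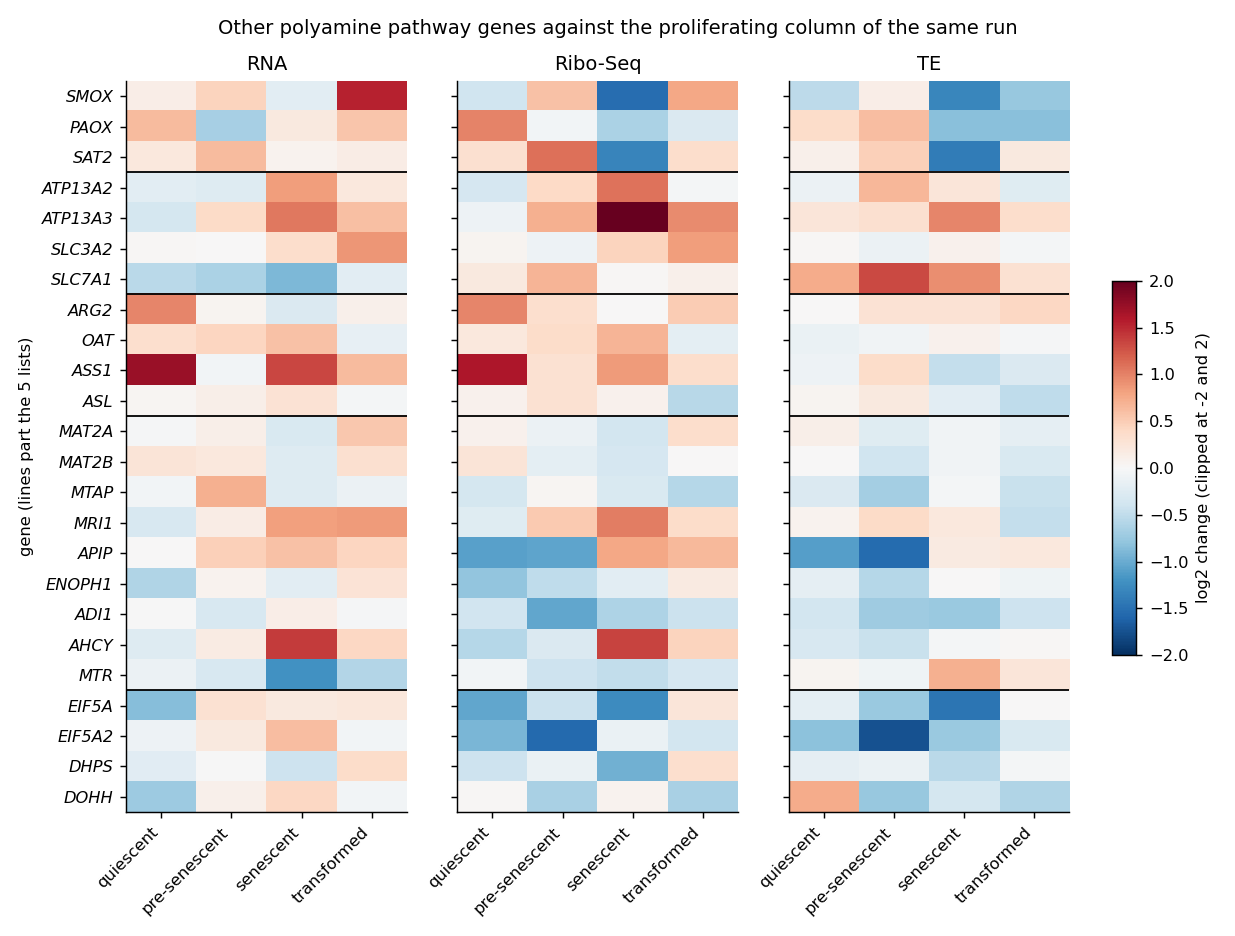
The log2 difference of RNA, Ribo-Seq and TE of 24 other pathway genes in the 4 states against the proliferating column of their run, with lines between the 5 lists and colours clipped at 2 in size. In senescence SMOX, SAT2 and EIF5A are blue in Ribo-Seq and ATP13A3 is red, at 2.03.

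MYC, which binds the E-box and is known to drive ODC1 and SRM, was not called in any of the 4 comparisons at the RNA level, with log2 differences of −0.06, 0.31, −0.09 and 0.26 in quiescence, pre-senescence, senescence and the cells labelled transformed. Its Ribo-Seq level was 36.96 to 57.11 FPKM over the 6 columns. All 4 genes of the MYC network list had a row. MXD1, a repressor that competes with MYC for MAX, was higher in senescence by 1.01 in RNA and 1.25 in Ribo-Seq, at 4.06 and 12.53 FPKM. In quiescence 3 of the 4 were called higher in Ribo-Seq (all genes 19.1%) and 0 lower (22.6%), including MNT by 1.34 and MAX by 1.16. MAX was at 31.94 Ribo-Seq FPKM in the run 2 proliferating column and 12.82 in the run 1 column.

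Of 10 other genes whose mRNAs are known for upstream-frame control or frameshifting 9 had a row. In TE 1 was called higher (all genes 10.6%) and 3 lower (13.8%) in quiescence, and 2 higher (13.6%) and 0 lower (22.5%) in pre-senescence. In senescence 1 was called higher (13.2%) and 2 lower (17.5%), and in the cells labelled transformed 3 higher (4.35%) and 1 lower (10%). No difference from the polyamine genes was tested. PPP1R15A, a stress-induced phosphatase subunit, was higher in pre-senescence by 1.91 in Ribo-Seq, at 124.15 FPKM against 33.10. ATF4, the stress transcription factor, had a TE difference of −1.12 in quiescence. Its Ribo-Seq level was 65.65 FPKM in the run 1 and 13.09 in the run 2 proliferating column.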

How the data were processed

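The deposited table held 12 columns of FPKM, 6 for RNA-Seq and 6 for Ribo-Seq, made from 17 libraries. The authors aligned reads with Bowtie (version not given in the sources used here) to 1 protein-coding transcript per gene from Ensembl release 65. They counted uniquely mapped reads over the transcript (RNA-Seq) or its coding sequence (Ribo-Seq) and raised FPKM below 1.0 to 1.0. They kept transcripts with 40 reads or more in both assays in at least 1 condition, so a single value can rest on fewer reads. The labels name hg19. How 2 libraries were combined in 5 columns is not stated.

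Columns were grouped by sample title. The comparison with the range of both proliferating columns was chosen after seeing the data. Log2 ratios were taken of the FPKM as deposited, without a pseudocount, against the proliferating column of the same run, and called at 1.5-fold. Background shares used genes above 1.0 in at least 1 column compared, and in all 4 for TE. The TE shares below both proliferating columns used genes above 1.0 in every column of the state and of both controls. With 1 column per state there was no test. Genes named beside the 8 came from fixed pathway lists, by size of difference, up to 2 each way per list. KRT19 and COL1A1 were named from the marker lists after their values were seen. The check of another targeted gene is not reported here. The genes and lists were chosen with earlier results of these data known. Promoter windows came from RefSeq (GRCh38.p14). Calculations, checked on simulated data, used Python 3.11.15, pandas 2.3.3 and numpy 2.4.6, and plots matplotlib 3.10.9.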

Additional observations from a re-analysis of the deposited data

How the results depend on the processing

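For the 7 genes 84 log2 differences were taken (7 genes, 4 comparisons, 3 measures), of which 26 were called. Adding 1 FPKM kept all 26 calls. Centring on the median of all genes kept 25 and gained 1, and upper-quartile scaling, like scaling without ribosomal protein genes, kept 22 and gained 1. The mean of both proliferating columns as control kept 16, lost 10 and gained 8. Exchanging the senescent and run 2 proliferating Ribo-Seq columns bears on 28 differences with 7 calls, of which 2 were kept and 3 lost, and 6 were gained. By construction the exchange turned the sign of every senescent Ribo-Seq difference, OAZ1 to 0.83 and SAT1 to −2.22. It reversed the TE difference of OAZ1 in senescence to 0.51. At 2-fold, genes called in RNA, Ribo-Seq and TE in quiescence went from 1884, 3957 and 2211 to 619, 1662 and 640, in pre-senescence from 1192, 3745 and 3216 to 366, 1692 and 1182, in senescence from 3960, 4821 and 2711 to 1947, 2675 and 756, and in the cells labelled transformed from 2382, 2821 and 1310 to 994, 1226 and 245. By local standard deviations they were 590 to 795, and with 10 FPKM or more in every column 365 to 2193. The exchange gave 5855 in TE in senescence, and 5085 in Ribo-Seq and 4288 in TE in the cells labelled transformed. Of the 7 genes, the calls at 2-fold were SAT1 in pre-senescence and senescence in RNA and Ribo-Seq, ODC1, AMD1 and SMS in quiescence in Ribo-Seq, and OAZ1 in TE in senescence and in Ribo-Seq in the cells labelled transformed. Those by local standard deviations were the same of SAT1, and SMS in TE in pre-senescence. No paired analysis was possible because replicate libraries were combined into 1 column per state, and for the same reason no replicate could be left out. Low levels limit SMOX, PAOX, MXD1 and ARG2 most.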

Other observations

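The genes whose 8 within-run log2 differences (4 states, RNA and Ribo-Seq) were most like those of SAT1, among 5543 genes at 5 FPKM or more in every column, were ITGB3, an integrin subunit, CTSL1, a lysosomal protease, and TNFRSF10D, a decoy receptor of TRAIL. Their root mean square differences from SAT1 were 0.48, 0.53 and 0.58 (log2). In senescence their RNA was higher by 2.19, 2.12 and 2.30 and their Ribo-Seq level by 2.24, 2.69 and 2.97, against 2.96 and 2.22 for SAT1. In pre-senescence their Ribo-Seq level was higher by 1.52, 1.37 and 1.68, against 1.30. For SRM the nearest genes were DFFA at 0.22, SORD at 0.23 and PTS, of tetrahydrobiopterin synthesis, at 0.25. PTS was higher in senescence by 0.88 in RNA and 0.30 in Ribo-Seq, where SRM was higher by 0.85 and 0.19.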
